A study of Mus musculus with 12 samples.

Results

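The effect of arsenic trioxide (ATO) on the transcriptome was examined in tumors grown from BxPC-3, an established human pancreatic ductal adenocarcinoma line, in the pancreas of mice. The comparison used 5 of the 12 libraries of the series, BxPC-3 control replicates 1 and 2 and BxPC-3 ATO replicates 1 to 3, and covered the 14633 of 27457 deposited genes with at least 1 FPKM in 3 or more of these libraries. FPKM is the number of reads of a gene divided by the gene's length and by a constant of the library. The remaining libraries were a control labelled BxPC-3, replicate 3, which was left out, and 6 libraries of tumors from AsPC-1, a second pancreatic cancer line. All samples carried the genotype label WT. The sources used here give no dose or schedule of ATO, no treatment of the control mice, and no age or strain of the animals, and they do not say that replicates came from separate mice. The p-values therefore measure the spread between these libraries, which may be technical. The organism label of every sample names the mouse, whereas the line is human.

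Arsenic trioxide binds protein thiols and is used against acute promyelocytic leukemia, where it acts on the PML fusion protein. Cells counter arsenic with glutathione, with glutathione transferases that couple it to toxic compounds, with metal-binding proteins and with export pumps. The study's title links glutathione S-transferase theta 2 with ferroptosis, an iron-dependent form of cell death marked by lipid peroxidation. The deposited tables give genes only as Ensembl identifiers. Of the 30832 identifiers in both tables together, 0 matched the reference name table at hand, which is for the mouse. No gene could therefore be named from that table. The genes of the title, of ferroptosis, of stress responses and of host cell types were not analysed here. What follows describes genes by their identifier, their length, their level and 3 lists of identifiers for cell cycle phases. A tumor holds cells of the line and cells of the mouse host, and how reads of mouse origin were handled is not stated. In such bulk samples fewer cells of a type and less RNA per cell cannot be told apart.

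The library labelled BxPC-3 control 3 was left out because its profile was that of AsPC-1. Its log2(FPKM + 1) values correlated at r = 0.946 to 0.973 with the AsPC-1 libraries and at r = 0.691 to 0.722 with the 5 BxPC-3 libraries used, across 16745 genes, which are not independent replicates. The identity of those 5 libraries was not checked against tumor or host cell markers, since these are known by name. Reads recovered from the steps of the values summed to between 15365529 and 19289959 per library in the 5 libraries, which makes the depths similar.

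Among the 5 libraries, ATO replicate 1 stood nearer to the controls than to the other ATO libraries. The root mean square difference in log2(FPKM + 1) over the tested genes was 0.324 between the controls and 0.346 between ATO replicates 2 and 3. Between ATO replicate 1 and the controls it was 0.357 and 0.376, whereas between ATO replicate 1 and ATO replicates 2 and 3 it was 0.568 and 0.507. ATO replicates 2 and 3 differed from the controls by 0.414 to 0.519. The order was similar after quantile normalization, where ATO replicate 1 differed by 0.364 and 0.369 from the controls and by 0.53 and 0.485 from the other ATO libraries. The first principal component held 55.7% of the variance, with scores of -20.9 and -11.1 in the controls, -28.1 in ATO replicate 1, 35.3 in ATO replicate 2 and 24.7 in ATO replicate 3. It therefore separated ATO replicates 2 and 3 from the other 3 libraries, not treated from untreated tumors. On the second component, with 17.2% of the variance, both controls lay above the ATO libraries, with 14.9 and 14.5 in the controls and -23, -1.7 and -4.7 in ATO replicates 1 to 3. What separates ATO replicate 1 from the other ATO libraries was not tested.

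**Figure D1:**
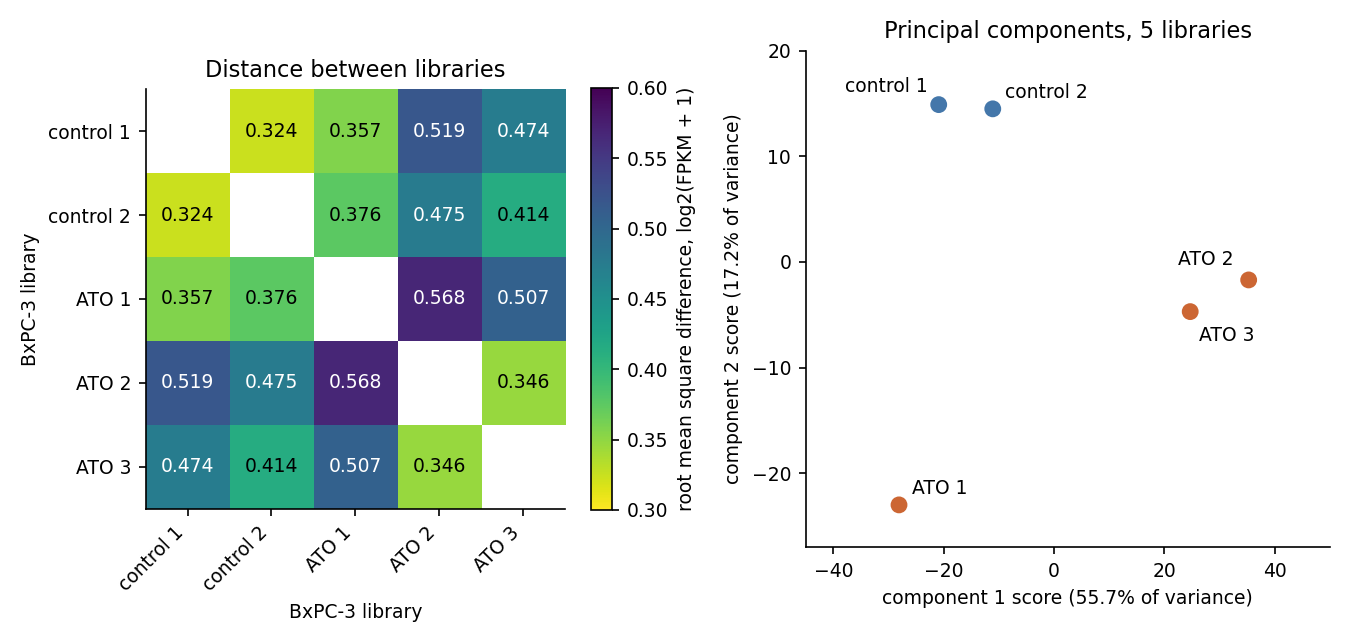
Left, root mean square difference in log2(FPKM + 1) between each pair of the 5 BxPC-3 libraries over 14633 genes; right, scores of the libraries on the first 2 principal components, with controls in blue and ATO in orange. ATO 1 lies nearer to the controls (0.357 and 0.376) than to ATO 2 (0.568) and ATO 3 (0.507).

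The spread between libraries set the precision of the comparison. The median standard deviation of a gene on the log2(FPKM + 1) scale was 0.11 over the 2 controls and 0.21 over the 3 ATO libraries. Even at equal spread such a median falls lower over 2 libraries than over 3, and this part was not removed. The median absolute log2 fold change was 0.15, and the median standard error of a fold change was 0.18. The log2 fold changes had a median of -0.0067, with the 2.5 percentile at -0.72 and the 97.5 percentile at 0.5. Single libraries stood outside the others in few genes. ATO replicate 2 lay more than 2-fold below the other 4 libraries in 76 genes and above them in 2, whereas ATO replicate 1 lay below in 2 and above in 38. Control replicate 1 lay above in 34 and below in 8, control replicate 2 in 11 and 7, and ATO replicate 3 in 5 and 22.

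The test across all genes called none between ATO and control tumors. In limma with Benjamini-Hochberg adjustment 0 of 14633 genes (0%) had an adjusted p under 0.05, and the smallest was 0.883. At an unadjusted p under 0.05 there were 758 genes (5.18%), of which 381 (2.6%) were higher and 377 (2.58%) lower in ATO. When the recovered reads were tested with voom and limma, 0 of 16258 genes passed, and 359 higher and 559 lower genes had an unadjusted p under 0.05. The share of these genes that were higher was 50.3% on the deposited scale and 39.1% on the recovered reads. The genes tested, the scaling of libraries and the weighting also differed between these fits. On the 14633 genes the share was 43.3% with libraries scaled by median ratios and 48% after quantile normalization. It was 53.4% when 0.1 was added to the FPKM values in place of 1. Leaving out ATO replicate 1 raised the count past the adjusted threshold to 6 of 13700 genes, 1 higher and 5 lower, with 1296 higher and 1966 lower genes at an unadjusted p under 0.05. That total of 3262 genes (23.8%) compares with 336 without control replicate 1, 338 without control replicate 2, 450 without ATO replicate 2 and 371 without ATO replicate 3. In 1 model over 11 libraries of both lines, which takes its spread from AsPC-1 as well, 0 of 14001 genes passed. The smallest limma adjusted p was 0.0815, for ENSG00000171401, a gene at only 0.136 to 0.38 FPKM in the AsPC-1 libraries. The counts thus rested on which libraries were included, and ATO replicate 1 moved them most.

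The groups were also compared by overlap, with no test. All 3 ATO libraries lay above both controls in 1794 genes (12.3%) and below both in 1367 (9.34%). Of the 10 ways to split the libraries into groups of these sizes, 1 gives each of these orders. Each order would thus be reached in a share of about 0.1 of genes with no effect, if all libraries varied alike. The log2 fold change was also at least 1 in size in 36 of the higher genes (0.246%) and in 81 of the lower genes (0.554%). Short genes were frequent among them. Of the 36 higher genes 23 were under 300 bases long (63.9%) and of the 81 lower genes 46 were (56.8%), whereas 7.48% of all tested genes were that short. Genes under 300 bases had a median of 7.6 reads per library and a median standard deviation of 0.54 over the ATO libraries, against 995.8 reads and 0.17 in genes of 6000 bases or more. Among the larger differences, 10 of the higher and 24 of the lower genes were at least 1200 bases long.

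**Figure D2:**
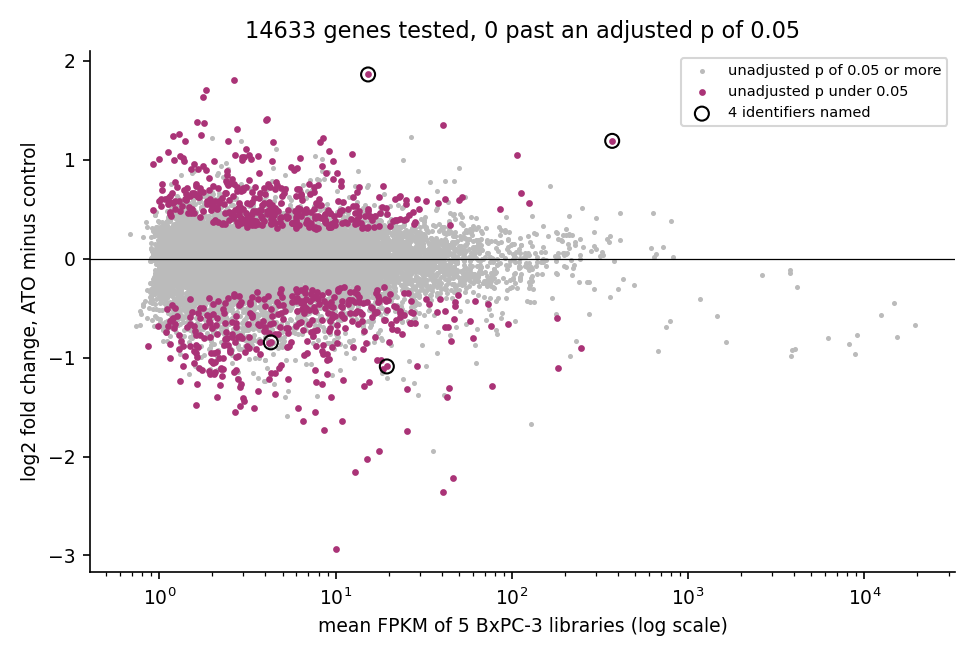
Log2 fold change (ATO minus control, on the log2(FPKM + 1) scale) of each of 14633 genes against its mean FPKM over the 5 BxPC-3 libraries, on a log axis. Purple points had an unadjusted p under 0.05 (381 higher, 377 lower), circles mark the 4 identifiers named in the text, and the 18 genes of 1000 FPKM or more at the right all lie below 0 as deposited, though 10 of the 18 do so after quantile normalization.

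Genes were then singled out by rule: groups that did not overlap, a log2 fold change of at least 0.5 in size and, in the higher of both groups, a mean level of 5 FPKM or more. The rule set no minimum of reads, so short genes could pass on few reads. This rule was met by 99 higher genes (0.677%) and 193 lower genes (1.32%). Their median log2 fold change was 0.65 and -0.73, with values chosen by the rule itself. They were mostly long genes, with 65 of the 99 (65.7%) and 124 of the 193 (64.2%) at 1200 bases or more, though this share was below the 79.4% of all tested genes. Genes under 300 bases made up 18.2% and 21.2% of them, beside 7.48% of all.

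The AsPC-1 libraries, which played no part in this choice, were then read for the same genes. Of the 99 higher genes 76 were also tested in AsPC-1, and 2 of these (2.63%) had all 3 AsPC-1 ATO libraries above all 3 controls while 11 (14.5%) had them below. Over all 12436 genes tested in both lines these shares were 16% and 9.26%. Of the 193 lower genes 154 were tested in AsPC-1, with 38 (24.7%) above and 6 (3.9%) below. The genes that were lower in BxPC-3 were thus more often above the controls in AsPC-1 than all genes were, and those that were higher in BxPC-3 were more often below, a description with no test. After quantile normalization of the AsPC-1 libraries the shares were 2.63% above and 19.7% below for the higher genes, 23.4% and 3.9% for the lower genes, and 12.3% and 13.9% for all. The medians lay close together. As deposited, the median AsPC-1 log2 fold change was 0.05 for the higher genes, 0.15 for the lower genes and 0.09 for all, and after quantile normalization -0.09, 0.09 and -0.05. In AsPC-1 the limma adjusted p was under 0.05 in 0 of these genes and in 0 of all 12436. The larger share of short genes among them was not taken into account. The 2 identifiers of each direction with the smallest unadjusted p are given below. None passed the adjusted threshold in the 5 libraries, and their values are descriptive. That their groups lie apart with little spread in these libraries follows from the choice.

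Of the higher genes, ENSG00000272482, a gene model of 345 bases, had the smallest p. In the controls its level was 4.56 and 5.88 FPKM, and it was 15.7, 26 and 24.3 FPKM in ATO replicates 1 to 3, from 30 and 51 reads against 125, 190 and 219 reads. Every ATO library was more than 2 times above the higher control. The means were 5.22 ± 0.927 FPKM in control (SD, n = 2) and 22 ± 5.53 FPKM in ATO (SD, n = 3), with a log2 fold change of 1.86 (SE 0.24, limma adjusted p = 0.883). Without ATO replicate 1 the log2 fold change was 2.08 and the limma adjusted p 0.0498. In the AsPC-1 table the same identifier had 1.82, 1.3 and 0.687 FPKM in control and 0.566, 0.228 and 0.465 FPKM in ATO libraries, from 10, 8 and 3 reads against 3, 1 and 2.

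The other higher gene, ENSG00000171401, of 2913 bases, was among the abundant genes of the line. The control tumors had 234 and 186 FPKM, and the ATO tumors 440, 503 and 491 FPKM. The lowest ATO value stood well above the highest control value, and ATO replicate 1 lay close to the other ATO libraries. These levels rested on 12960 and 13627 reads in control and 29628 to 37385 reads in ATO. The mean was 2.28 times as high in ATO (478 ± 33.1 FPKM, SD, n = 3) as in control (210 ± 33.6 FPKM, SD, n = 2), with a log2 fold change of 1.19 (SE 0.2, limma adjusted p = 0.883). The gene was close to absent from the AsPC-1 table, at 0.136 to 0.38 FPKM, and from the library labelled BxPC-3 control 3, at 0.1 FPKM.

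Of the lower genes, ENSG00000145050, of 2111 bases, was at 31.2 and 27 FPKM in the controls. In the ATO tumors it was at 14.5, 13.1 and 11.9 FPKM. All 3 ATO libraries lay together at about the same level, below both controls. The reads were 1254 and 1435 in control and 705, 587 and 654 in ATO. The mean in ATO, 13.2 ± 1.3 FPKM (SD, n = 3), was 0.452 times that in control, 29.1 ± 2.94 FPKM (SD, n = 2), a log2 fold change of -1.09 (SE 0.14, limma adjusted p = 0.883). In AsPC-1 tumors it had 18.6, 17.2 and 17.9 FPKM in control and 16.7, 9.19 and 10.4 FPKM in ATO libraries, a log2 fold change of -0.57 (SE 0.22) that did not pass either (limma adjusted p = 0.222). Its groups did not overlap in either line. The difference between the lines in this fold change was not tested. The tables may have been scaled separately, which bears on levels more than on fold changes within a line.

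ENSG00000106829, of 8187 bases, was the other lower gene. Control values were 6.05 and 6.37 FPKM and ATO values 3.13, 3.11 and 2.8 FPKM, from 944 and 1312 reads against 592, 540 and 598. The gene was chosen for groups that lie apart, and the control group is 2 libraries. The mean in ATO, 3.01 ± 0.188 FPKM (SD, n = 3), was 0.485 times that in control, 6.21 ± 0.224 FPKM (SD, n = 2), with a log2 fold change of -0.85 (SE 0.13, limma adjusted p = 0.883). It was nearly absent from AsPC-1 tumors, at 0.0383 to 0.103 FPKM, and from the library labelled BxPC-3 control 3, at 0.136 FPKM. With that library among the controls its log2 fold change was 0.04.

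**Figure D3:**
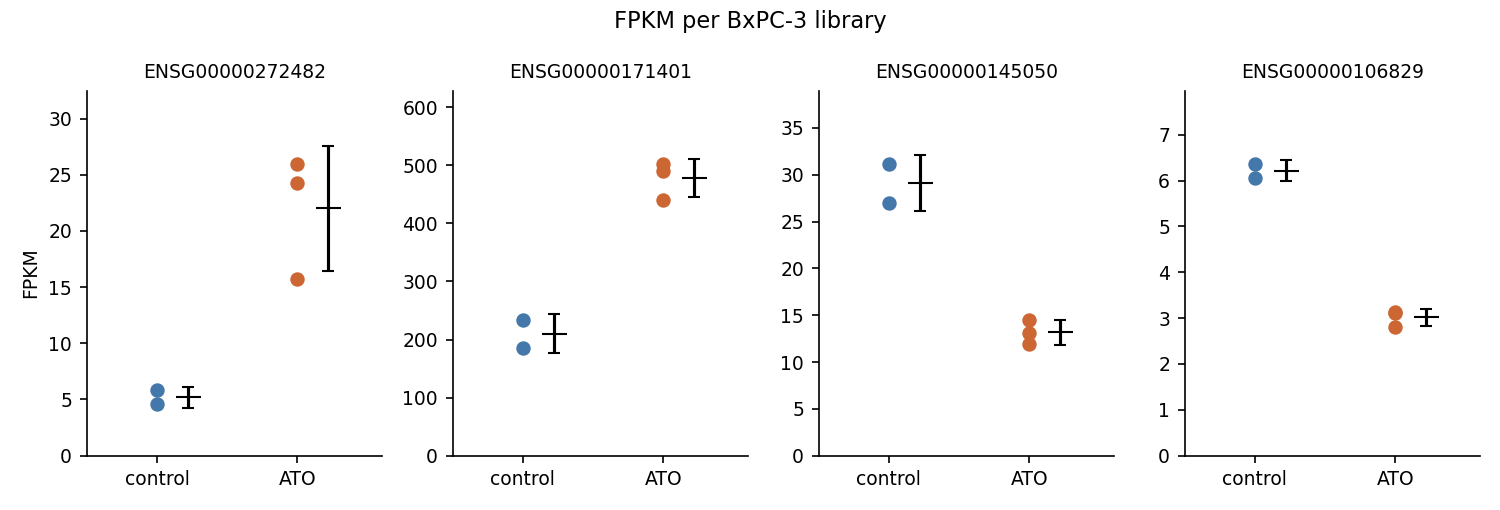
FPKM of the 4 named identifiers in the 2 control (blue) and 3 ATO (orange) BxPC-3 libraries, with the mean and SD of each group in black. In each panel the ATO points and the control points do not overlap, as the rule of choice required. The ATO points lie above the controls for ENSG00000272482 and ENSG00000171401 and below them for ENSG00000145050 and ENSG00000106829.

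The 18 most abundant genes had lower mean levels in ATO as deposited, but the groups overlapped. These genes were not named here, and whether they form a single class of transcripts that vary together was not tested. Their values may not stand for abundant genes in general. Over the 175 genes with a mean of 100 FPKM or more, these included, the median log2 fold change was -0.024. Control replicate 1 had the highest level of the 5 libraries in all 18 genes described here. All 18 genes with a mean of 1000 FPKM or more, of 66 to 1812 bases, had a log2 fold change below 0 as deposited, from -0.98 to -0.11, whereas 10 of the 18 were below 0 after quantile normalization. Their median log2 fold change was -0.72 as deposited, -0.74 on the recovered reads and -0.05 after quantile normalization, so their distance from 0 depended on the scaling. It was -0.34 without control replicate 1, when 14 of the 18 were below 0, and -1.13 without control replicate 2. None of the 18 had groups that did not overlap or an unadjusted p under 0.05, and their lowest limma adjusted p was 0.883. Together they held 55.6% and 42.7% of the summed FPKM of the control libraries and 46%, 35.5% and 34.2% of that of ATO replicates 1 to 3. ATO replicate 1 thus lay between the controls. By reads, the 20 genes with most reads held 24.7% and 16.9% in the controls and 19.1%, 13.2% and 12.7% in the ATO libraries. The means of 20.8% ± 5.52 (SD, n = 2) and 15% ± 3.56 (SD, n = 3) differed by -5.8 percentage points. A two-sided exact permutation test gave p = 0.3, and 2 against 3 libraries cannot give less than 0.1.

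The deviations of the libraries also followed gene length. In each library the deviation of a gene from its mean over the 5 libraries was taken on the log2(FPKM + 1) scale. Over the 1095 genes under 300 bases the median deviation was 0.22 and 0 in the controls, 0.35 in ATO replicate 1, -0.35 in ATO replicate 2 and -0.14 in ATO replicate 3. ATO replicate 1 was the highest of the 5 libraries here and ATO replicate 2 the lowest, so the ATO group spanned both controls. Over 1919 genes of 300 to 1199 bases the medians were 0.13 and -0.02 in the controls and 0.23, -0.17 and -0.14 in the ATO libraries, the same order at both ends. Over the 4307 genes of 6000 bases or more every library lay between -0.02 and 0.04.

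The share of genes whose groups did not overlap also differed by length. The share with all ATO libraries above both controls was 7.4% in genes under 300 bases, 8.39% at 300 to 1199 bases, 10.9% at 1200 to 2999, 13.1% at 3000 to 5999 and 15.1% at 6000 or more, beside 12.3% of all tested genes. The share with all ATO libraries below both controls was 13%, 9.02%, 10.6%, 9.1% and 8.03% in the same classes, beside 9.34% of all. Long genes were thus more often above the controls and the shortest genes more often below. With no effect each order would be reached in a share of about 0.1 of genes, if all libraries varied alike. The median log2 fold change was -0.15 in the shortest class and 0.011 in the longest. Quantile normalization gave -0.11 and 0.032, and the recovered reads gave -0.18 and 0.00032. The part of RNA quality or library preparation in this pattern was not tested.

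**Figure D4:**
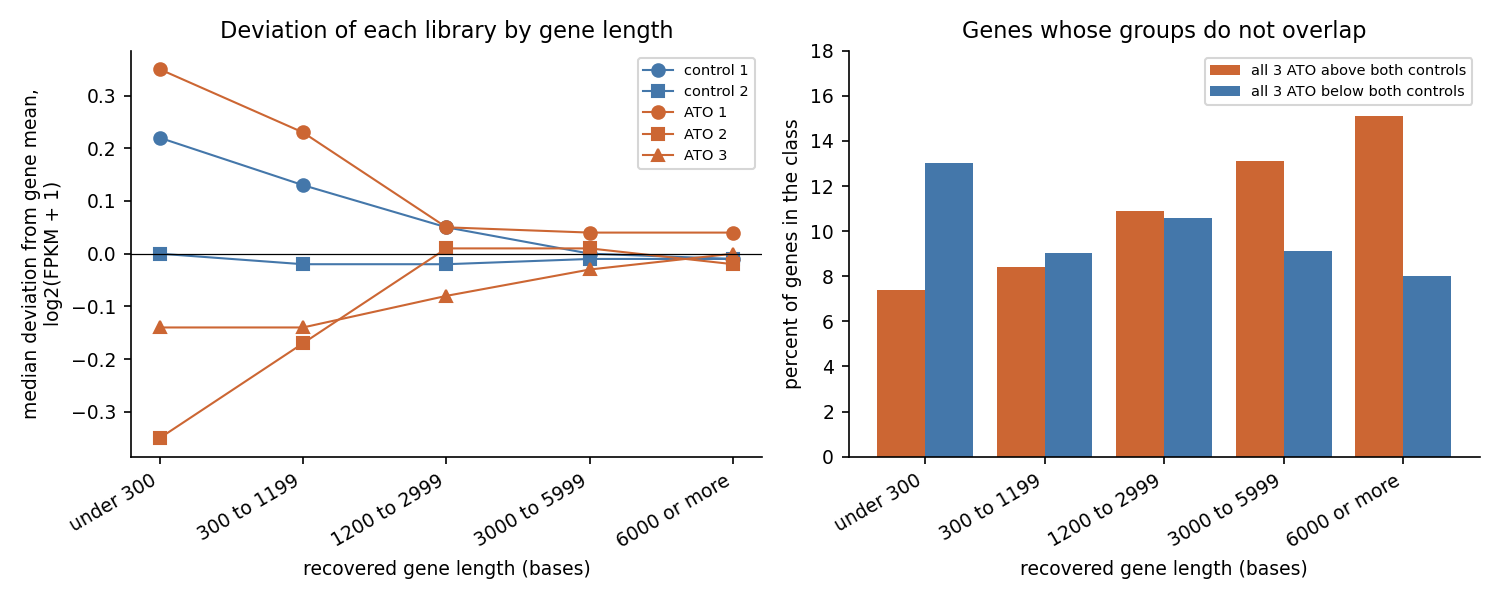
Left, median deviation of each library from the mean of a gene over the 5 libraries, on the log2(FPKM + 1) scale, in 5 classes of gene length; right, percent of genes in each class with all ATO libraries above (orange) or below (blue) both controls. In genes under 300 bases ATO 1 lies at 0.35 and ATO 2 at -0.35, and the libraries meet near 0 in genes of 6000 bases or more.

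Genes that mark phases of the cell cycle lay near the middle of all genes. Human identifiers that mark a single phase were taken from the marker pairs of the R package scran, which were built for calling the phase of single cells. Of the 23 identifiers for G1, the phase before DNA synthesis, 20 were tested, with a median log2 fold change of -0.016. Of the 34 for S, the phase of DNA synthesis, 25 were tested, with a median of -0.029. Of the 45 for G2M, the phase around cell division, 40 were tested, with a median of 0.00058. The median over all tested genes was -0.0067.

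No member of the 3 cell cycle lists passed the adjusted threshold. At an unadjusted p under 0.05 none was higher, while 1 of 20 for G1, 0 of 25 for S and 2 of 40 for G2M were lower, against 2.58% of all tested genes. All 3 ATO libraries lay above both controls in 2 of 20, 4 of 25 and 4 of 40 members, against 12.3% of all, and below both in 1, 1 and 5, against 9.34%. The summed level of the G2M members was 539 and 499 FPKM in the controls and 487, 502 and 485 FPKM in the ATO libraries, and that of the S members 130 and 124 FPKM against 131, 121 and 118. The G1 members summed to 990 and 1280 FPKM in the controls and 998, 1060 and 1070 FPKM in the ATO libraries. The groups overlapped for each of the 3 sums. After quantile normalization the medians were 0.0063, -0.0044 and 0.021 for G1, S and G2M, so the sign for G1 depended on the scaling. On the recovered reads the same members had medians of -0.029, -0.061 and -0.0058. Over the 22, 26 and 42 members that passed the filter of 1 CPM used for the reads, the medians were -0.029, -0.032 and -0.01, so the sign for G2M also depended on the scaling.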

How the data were processed

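RNA libraries were prepared from total tumor RNA with a SMARTer mRNA kit, per the labels' protocols. The submitters' processing notes name GRCm38, mm10 and hg38 without saying which was used for what. No aligner, counting tool or annotation is given in the sources used here. For each line the authors deposited a table of FPKM, computed before deposit from reads per gene, gene length and a library constant. This unit was read from the values, as the table names none. A space within 1 number was removed. Reads and lengths were recovered with Python 3.11.15, and 99.98% of BxPC-3 values came out whole within 0.05 reads. The reads summed to 72.5% to 84.4% of the total the constant implies in the 5 libraries, and how the authors set it is not stated.

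The test ran in R 4.3.3 on log2(FPKM + 1) with limma 3.58.1, using eBayes with a trend, with Benjamini-Hochberg adjustment over all 14633 genes and a threshold of 0.05. Fold changes on this scale understate low genes. The comparison, lists and rules were chosen with earlier results of these data known. The rule for named genes also asked for protein-coding genes with a symbol, which could not be applied with the mouse name table. The first 2 identifiers in each direction are printed in place of 12 names each, and 46 gene lists and 32 single genes fixed by name were not analysed here. The cell cycle lists (from scran), the classes of length and abundance and the AsPC-1 values were added after the data were seen. Alternatives were the pseudocount, filters, scalings, voom with limma on recovered reads, no trend, a replicate block, 1 model over 11 libraries, the library left out, and leaving out each library.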

Additional observations from a re-analysis of the deposited data

Results flagged for a closer look

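ENSG00000272482 had opposite directions in the lines. All 3 ATO libraries lay above both controls in BxPC-3, with a log2 fold change of 1.86, and below all 3 controls in AsPC-1, with a mean difference of -0.65 on the log2(FPKM + 1) scale. The AsPC-1 values rested on 3 to 10 reads in control and 1 to 3 reads in ATO libraries, and the gene fell under the filter on low values there. The difference between the lines was not tested.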

How the results depend on the processing

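The count of genes past an adjusted p of 0.05 was 0 in every setting run other than without ATO replicate 1, where it was 6. Fits without 1 library thus gave 0 to 6, and with the threshold raised to 0.25 the fit reported still gave 0. The raised threshold gave 4 genes in 1 model over 11 libraries of both lines, 2 higher and 2 lower, and 1621 higher and 2342 lower without ATO replicate 1; it gave 0 in the other settings. In the model over 11 libraries the limma adjusted p was 0.0815 for ENSG00000171401 and 0.0973 for ENSG00000272482 and ENSG00000106829. For ENSG00000145050 it was 0.776. That gene had 9.19 to 18.6 FPKM in the AsPC-1 libraries, whereas the others named had 1.82 FPKM or less in each. Values that low vary little on the log2(FPKM + 1) scale, and their part in the smaller adjusted p was not tested. At an unadjusted p under 0.05 the counts, 381 higher and 377 lower, were 646 and 666 with no filter on low values and 169 and 205 with at least 5 FPKM in 3 libraries, where more and fewer genes were tested. The higher count was 208 with the library labelled BxPC-3 control 3 among the controls. Leaving out a library gave 121 to 1296 higher and 143 to 1966 lower genes; without control replicate 1 or 2 a single control remained, assumed to vary like the ATO libraries. The largest counts came without ATO replicate 1, and the other 4 fits gave 121 to 238 higher and 143 to 217 lower genes. With a replicate block the higher count was 244 and the lower count 389. ATO replicate 3 has no control of its number in that fit, so it adds nothing to the fold changes. For the 4 identifiers named, these were the same as without ATO replicate 3, at 1.78, 1.17, -1.02 and -0.81 in the order of their description. Deviations of same-numbered libraries correlated at 0.146 and 0.059 across genes, over 2 shared numbers only, beside 0.149 for control replicate 2 and ATO replicate 3. With 2 controls the deviations of 1 mirror those of the other, so each value also occurs with the opposite sign. These correlations cannot show whether libraries are paired, and same-numbered libraries were not treated as pairs. The log2 fold change of ENSG00000106829 turned to 0.04 with the library labelled BxPC-3 control 3 included, in which the gene had 0.136 FPKM. ENSG00000272482 (1.71 to 2.6), ENSG00000171401 (1.03 to 3.72) and ENSG00000145050 (-1.19 to -0.72) kept their directions in the 15 settings each. They were chosen for groups that do not overlap in the 5 libraries. A kept direction in fits on those libraries was therefore largely fixed by the choice. The values 2.6, 3.72 and -0.72 came with the library labelled BxPC-3 control 3 included. Among the 4 identifiers the adjusted p was under 0.05 once, for ENSG00000272482 without ATO replicate 1.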
